A study of Mus musculus with 80 samples.

Results

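Which genes of the mouse liver answered food withdrawal differently in hepatocytes and in macrophages was examined after 3 h of fasting. The quantity was a difference of differences: the fasting effect in hepatocyte nuclei minus the fasting effect in macrophage nuclei. It rests on 16 of the 80 libraries of the series, chosen by their labels: all purified libraries of 3 h, 4 in each of 4 groups. The groups were fasted hepatocyte nuclei (HEP, labelled 3h_fast_HEP), fed hepatocyte nuclei (3h_Ad_HEP), fasted macrophage nuclei (MAC, 3h_fast_MAC) and fed macrophage nuclei (3h_Ad_MAC). All mice were female. The hepatocyte groups came from HEP-INTACT mice and the macrophage groups from MAC-INTACT mice, 2 lines whose nuclei can be captured by antibody from the cell type in the name. The INTACT method isolates tagged nuclei of 1 cell type from whole tissue. The sources used here give neither the promoter that drives the tag, nor the strain, nor the age, nor how many mice went into a purified library. Fasting began at zeitgeber time 12, when the lights go off and mice start to eat. Fasted mice and fed mice with free access to food were taken 3 h later, at zeitgeber time 15, so the pairs share the time of day. Line and cell type go together in this design, so a difference between the lines and a difference between the cell types cannot be told apart in the purified libraries.

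The early hours without food change the liver through hormones. Falling insulin releases FoxO factors, which switch on genes that insulin keeps low, and lowers SREBP activity, which drives genes of fatty acid and cholesterol synthesis. Rising glucagon and glucocorticoids raise genes of glucose production, and fatty acids from fat tissue act through PPARalpha on genes of their own oxidation. Kupffer cells, the resident macrophages, lie in the same blood stream as hepatocytes but serve mainly in uptake of particles and in defence.

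Counts summed to between 14316644 and 27788128 per HEP library and to between 15245997 and 32564897 per MAC library, over 20105 genes. Levels below are CPM, read counts scaled to a common library size. Clec4f, which marks Kupffer cells, was at 7.37 to 12.9 CPM in fasted HEP libraries and 6.22 to 10.5 CPM in fed ones, against 534.8 to 1124 CPM in fasted MAC libraries and 794.9 to 1220 CPM in fed MAC libraries. Albumin (Alb), which marks hepatocytes, separated the cell types far less, with 4121 to 7528 CPM in fasted HEP libraries and 2333 to 4664 CPM in fed ones, against 2524 to 3337 CPM in fasted MAC libraries and 1500 to 2263 CPM in fed MAC libraries. Kupffer cell and macrophage markers in HEP libraries stood at a median of 1.37% of their MAC level when fasted and 1.45% when fed (28 of 29 markers measured). Hepatocyte markers in MAC libraries stood far higher, at a median of 44.0% of their HEP level when fasted and 43.8% when fed (23 markers). In bulk nuclei, fewer nuclei of a type and less RNA per nucleus cannot be told apart. Of the MAC libraries, fasted library 3 stood apart: its correlation with another library of its group fell as low as 0.954 in log CPM, against at least 0.984 in the other 3 groups. Its hepatocyte markers summed to 25730 CPM, against 12660 to 13510 CPM in the other 3 fasted MAC libraries and 7711 to 12620 CPM in the fed ones. Its Clec4f value was the 534.8 CPM. Markers of cholangiocytes, the cells of bile ducts, summed when fasted to 0.443 of the fed level in HEP and 0.617 in MAC (9 of 12 measured, 0 called in the difference; exact permutation p = 0.0286 each, 0.1 after adjustment over 14 tests). Results that rest on fasted MAC library 3 are given with and without it.

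After 3 h more genes passed the test in hepatocytes than in macrophages, and most of the difference consisted of genes that moved in hepatocytes while the macrophage change missed the threshold. Of 14011 genes tested, 1485 (10.6%) differed between the fasting effects at an edgeR adjusted p under 0.05. In 869 of them (6.2% of genes tested) the log2 fold change of fasted over fed was more positive in HEP than in MAC, called higher below. In 616 (4.4%) it was more negative, called lower. The difference was larger than 2-fold for 625 genes and larger than 4-fold for 108. In HEP alone 5171 genes (36.9%) passed the test, of which 2614 rose (18.7%) and 2557 fell (18.2%). In MAC alone 1893 (13.5%) passed, of which 978 rose (6.98%) and 915 fell (6.53%). With MAC fasted library 3 left out, 478 genes passed in MAC, 297 up and 181 down, and 1102 passed in the difference, of which 932 were among the 1485. Leaving out MAC fed library 3 gave 965 calls in MAC and leaving out MAC fasted library 2 gave 2999. Without HEP fasted library 3 there were 989 calls in the difference, 374 of them lower. Genes called higher made up 58.5% of the calls under TMM scaling, but 47.8% under RLE scaling, 49.3% under upper-quartile scaling and 48.2% under DESeq2, so the balance of higher and lower depends on the scaling. The median difference of all genes tested was 0.04 under TMM and -0.01 under RLE on the log2 scale.

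Sorted by the call in each cell type, 682 of the 1485 genes rose in HEP with no call in MAC and 491 fell in HEP with no call in MAC. A further 81 rose in both and 50 fell in both, each time by more in HEP. None of the genes called in the difference changed the same way in both and by more in MAC. In MAC with no call in HEP, 36 rose and 38 fell. Opposite calls were made for 27 genes, 13 up in HEP and down in MAC, and 14 the other way. The last 80 had no call in either effect. Without MAC fasted library 3 the groups with a MAC call and no or the opposite HEP call shrank to 5, 1, 2 and 4 genes. The 2 large HEP groups kept 585 and 418 genes, of which 458 and 305 were the same genes.

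**Figure D1:**
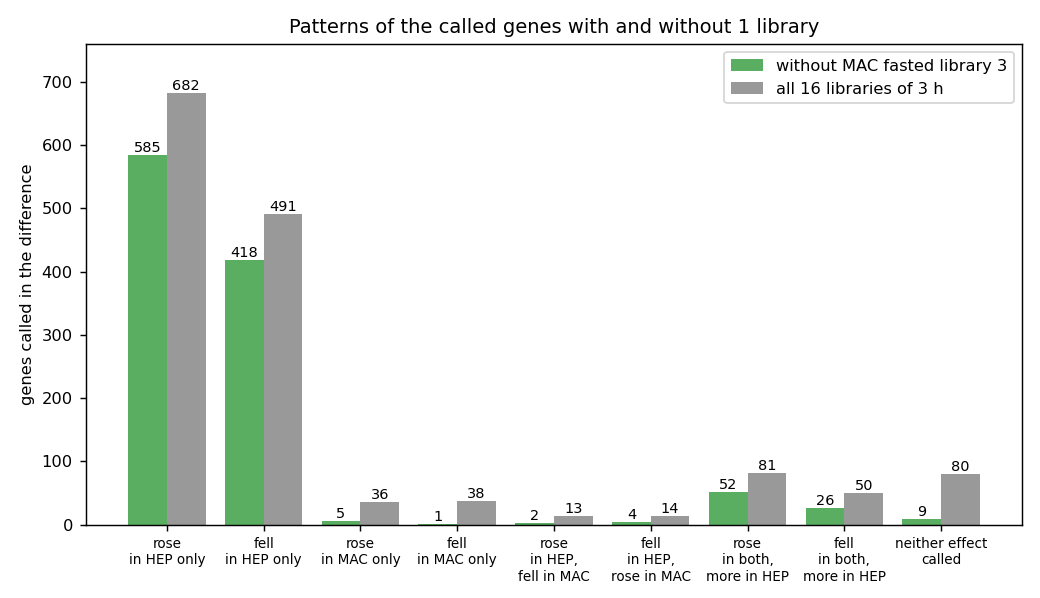
Number of genes called in the difference of the fasting effects (vertical axis) by the call in each cell type (horizontal axis), without MAC fasted library 3 (green) and with all 16 libraries of 3 h (grey). The HEP groups stay large without that library, at 585 and 418 genes, the groups called in MAC alone or in opposite directions fall to between 1 and 5, and the groups called in both keep 52 and 26.

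The effects of both cell types ran in the same direction more often than not. Of the 5171 genes called in HEP, 81.0% had a MAC effect of the same sign and 93.7% a MAC effect of smaller absolute size. Of the 1893 genes called in MAC, 51.3% had a HEP effect of smaller absolute size. Genes picked for their effect in 1 cell type tend to show a smaller one in the other, so these sizes follow in part from the choice. Over all genes tested the effects had a Pearson r of 0.584 and a Spearman rho of 0.489, a description across genes that share the same libraries. By fed level at the other times, r was 0.817 for genes at least 2-fold higher in HEP. It was 0.293 for genes at least 2-fold higher in MAC and 0.532 for the genes between them. The part of hepatocyte RNA in the MAC effects was not tested. Both effects were called for 1190 genes, and 1163 of these moved the same way.

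**Figure D2:**
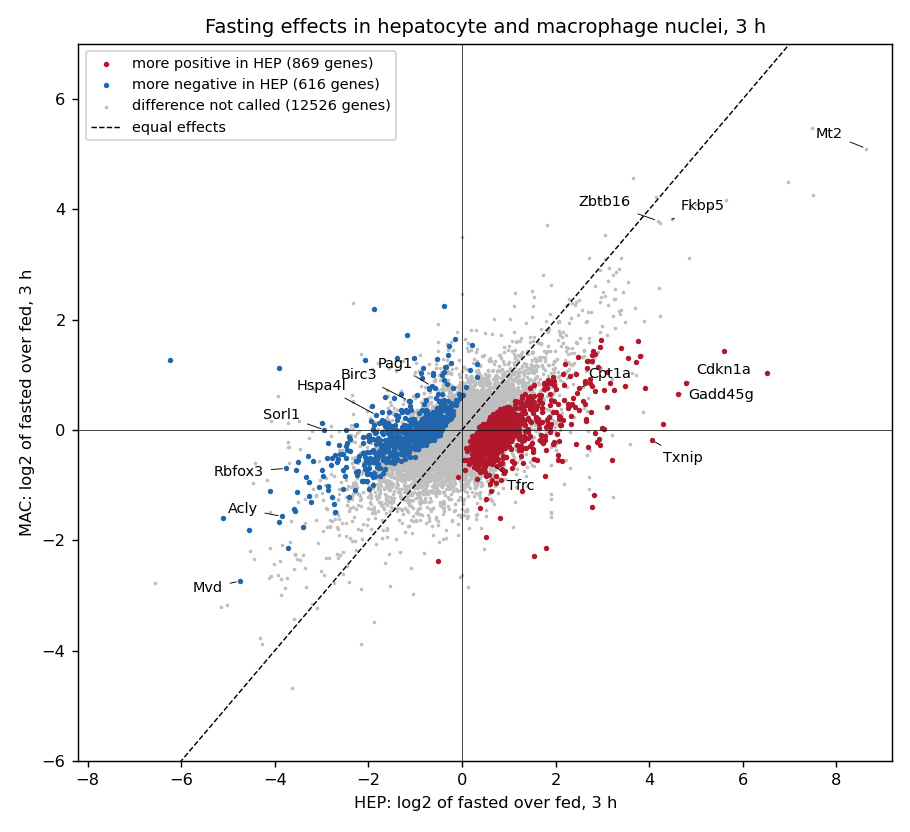
Log2 of fasted over fed at 3 h in HEP (horizontal axis) and in MAC (vertical axis), 1 point per gene tested, with 869 genes whose effect was more positive in HEP in red and 616 whose effect was more negative in HEP in blue. Most coloured points spread along the horizontal axis near a MAC effect of 0. Fkbp5, Zbtb16 and Mt2 are uncalled points, far up in both.

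The gene with the highest positive difference among those with at least 1 CPM in both cell types was Txnip, a thioredoxin-binding protein that restrains glucose uptake. It lies on chromosome 3 at 96557957 to 96561857, plus strand, in mm10. In HEP it had 191.2, 96.1, 97.5 and 83.5 CPM when fasted and 4.98, 9.14, 6.28 and 7.65 CPM when fed. In MAC it had 46.2, 59.3, 24.3 and 75.04 CPM when fasted and 50.6, 66.1, 43.9 and 72.5 CPM when fed. The HEP groups lay far apart, while the MAC groups overlapped. The log2 effect was 4.06 ± 0.39 (SE) in HEP and -0.18 ± 0.34 in MAC, a difference of 4.24 ± 0.51 (edgeR adjusted p = 4.36e-07). It was 4.01 ± 0.52 without MAC fasted library 3. In the fed state all HEP libraries lay below all MAC libraries. The median hepatocyte marker share of MAC libraries, applied to the HEP level of Txnip, gives 51.5 CPM when fasted and 3.07 CPM when fed, beside the measured MAC means of 51.2 and 58.3 CPM. Over the 23 markers that share ran from 15.5% to 68.6% when fasted and from 31.5% to 90.9% when fed. Values from the median share, here and below, are therefore rough. The part of hepatocyte RNA in the MAC value was not tested.

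Fkbp5, a co-chaperone of the glucocorticoid receptor and one of its best known targets, showed the opposite case, a rise of like size in both. It had 1506, 877.9, 1327 and 1320 CPM in fasted HEP libraries and 42.7, 57.5, 79.6 and 44.6 CPM in fed ones. In MAC it had 1210, 874.8, 1677 and 1775 CPM when fasted and 98.0, 84.1, 70.3 and 139.6 CPM when fed. Fasted and fed libraries did not overlap in either cell type. The log2 effect was 4.49 ± 0.50 in HEP and 3.82 ± 0.48 in MAC, and the difference of 0.67 ± 0.61 did not pass the test (edgeR adjusted p = 0.529). Here the marker share of the fasted HEP level gives 553.5 CPM, below the measured MAC mean of 1384 CPM.

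The promoters of both genes are shown, a pair picked with their values known. They rose by a like amount in HEP while MAC changed for Fkbp5 and not detectably for Txnip. Each window runs from 250 bases before to 50 bases after the start of the gene, 5′ to 3′ on the gene's strand, from RefSeq for GRCm38.p6. Capitals mark matches, on either strand, to the motifs searched.
Txnip, chr3:96557707-96558006, plus strand: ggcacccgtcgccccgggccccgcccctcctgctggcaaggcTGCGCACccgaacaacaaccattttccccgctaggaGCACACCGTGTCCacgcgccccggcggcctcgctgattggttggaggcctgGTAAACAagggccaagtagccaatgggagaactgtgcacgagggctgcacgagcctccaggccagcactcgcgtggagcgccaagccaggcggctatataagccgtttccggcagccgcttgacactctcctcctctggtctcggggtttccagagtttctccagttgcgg
Fkbp5, chr17:28486100-28486399, minus strand: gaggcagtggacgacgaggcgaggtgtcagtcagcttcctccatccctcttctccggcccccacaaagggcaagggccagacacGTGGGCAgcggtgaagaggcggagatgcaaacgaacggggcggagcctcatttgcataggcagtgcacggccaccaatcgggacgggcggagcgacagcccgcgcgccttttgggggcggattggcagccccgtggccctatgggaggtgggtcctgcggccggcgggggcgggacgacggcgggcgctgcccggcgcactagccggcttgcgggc
The motifs were a glucocorticoid response element (GNACA, 3 free bases, TGTNC), a sterol regulatory element (TCACNCCAC), a FoxO site (GTAAACA), a metal response element core (TGCNCNC), a cAMP response element (TGACGTCA) and an NF-kB site (GGGA, 3 free bases, TCC). In the Txnip window the metal core matched from base 43, the glucocorticoid element from base 79 and the FoxO site from base 130. The Fkbp5 window held 1 match, a metal core from base 85. Of 32851 promoter windows of the same length, 0.475% hold the glucocorticoid motif, 3.65% the FoxO motif and 51.0% the metal core. The same windows of Adgrg6 and Mvd held no match and that of Col6a6 held 2 metal cores. The nearest window available for Rbfox3 held no match either, but its start site lies 150556 bases from the listed start of the gene. A match says that these letters are present and nothing about binding.

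**Figure D3:**
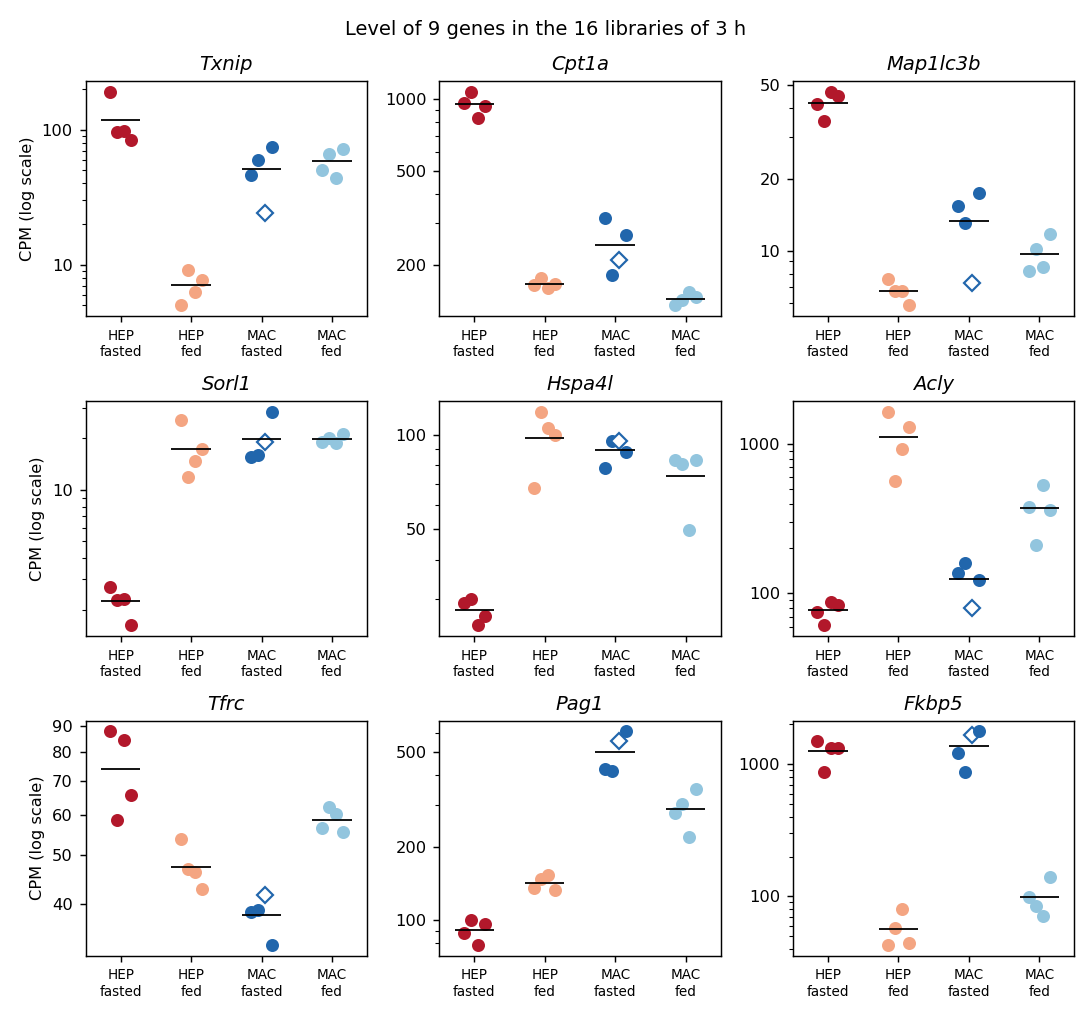
CPM on a log axis of 9 genes in the 16 libraries of 3 h, 1 point per library, with a bar at the mean of 4; the open diamond is MAC fasted library 3. Txnip, Cpt1a, Map1lc3b, Sorl1, Hspa4l and Acly separate in HEP far more than in MAC, Tfrc and Pag1 move in opposite directions, and Fkbp5 separates alike in both.

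Regulators of growth arrest and stress were next among the genes that rose in HEP. Cdkn1a, the cell cycle inhibitor p21, had 30.4, 3.67, 35.0 and 16.8 CPM in fasted HEP libraries and 0.431 to 1.13 CPM in fed ones. In MAC it had 3.42, 2.47, 3.24 and 7.01 CPM when fasted and 2.14, 2.08, 2.13 and 2.72 CPM when fed. HEP groups did not overlap, and MAC groups did. The difference was 3.93 ± 0.81 on the log2 scale (edgeR adjusted p = 0.00088). Gadd45g, a sensor of growth arrest and DNA damage, had 59.8, 10.1, 61.1 and 16.3 CPM in fasted HEP libraries and 0.962 to 2.10 CPM in fed ones, against 7.48 to 12.1 CPM in fasted MAC libraries and 4.81 to 8.26 CPM in fed MAC libraries. Fasted libraries 2 and 4 were the lower HEP ones for this gene, yet above all fed ones. The same held for Cdkn1a, Gadd45b, Ppargc1a and Igfbp1, so this split of the fasted HEP libraries is not particular to Gadd45g. For Cpt1a and Map1lc3b these libraries were not the lower ones. The difference of Gadd45g was 3.95 ± 0.95, and that of its relative Gadd45b was 2.90 ± 0.73.

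Immediate early genes, which answer a stimulus before new protein is made, were higher in 4 of 22 measured members and lower in 0, beside 6.2% and 4.4% of all genes, with a median difference of 0.99 against 0.04 over all genes tested. The count higher was 3 without MAC fasted library 3 and 7 in a fit to the 16 libraries alone. The HEP median was 0.61 and the MAC median -0.27. Maff, a small Maf transcription factor, rose in both cell types. It had 36.4, 19.6, 29.1 and 27.8 CPM in fasted HEP libraries and 1.51 to 2.55 CPM in fed ones, against 2.79 to 4.63 CPM in fasted MAC libraries and 0.857 to 2.08 CPM in fed MAC libraries. Neither pair overlapped, and the difference was 2.49 ± 0.53. Its MAC call, but not its difference, was lost without MAC fasted library 3. Junb, a subunit of AP-1, had an effect of 1.77 ± 0.41 in HEP and -0.83 ± 0.38 in MAC, and Klf6 had 1.21 ± 0.23 in HEP and 0.02 ± 0.21 in MAC. Nr4a1, an orphan nuclear receptor that glucagon induces, differed by 3.11 ± 1.02 (edgeR adjusted p = 0.0404) and lost the call in 13 of the 16 fits that leave out 1 library.

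Genes that burn fatty acids or make ketone bodies were higher in 14 of 49 measured members and lower in 0, beside 6.2% and 4.4% of all genes. In HEP 41 of the 49 rose and 0 fell (median log2 1.17), where 18.7% of all genes rose. In MAC 16 rose and 0 fell (median 0.48), where 6.98% of all genes rose, and without MAC fasted library 3 this was 7 rising in MAC and 12 higher in the difference. Cpt1a, which takes fatty acids into mitochondria at the rate-limiting step, had 963.5, 1072, 829.6 and 931.9 CPM in fasted HEP libraries and 165.0, 177.1, 160.7 and 167.6 CPM in fed ones. MAC libraries had 316.9, 182.0, 210.8 and 268.0 CPM when fasted and 135.7, 143.1, 154.3 and 147.1 CPM when fed. It rose in both without overlap, by 2.5 ± 0.23 in HEP and 0.75 ± 0.22 in MAC, with a difference of 1.75 ± 0.32 (edgeR adjusted p = 0.000206). The marker share of the HEP level gives 417.7 CPM when fasted, above the measured MAC mean of 244.4 CPM, and 73.4 CPM when fed, below the measured 145.1 CPM. Slc22a5, the carnitine transporter, differed by 2.07 ± 0.41 and kept its call under all alternatives tried. Acot2, a mitochondrial thioesterase, differed by 1.81 ± 0.51 and missed the threshold at 1.51 without HEP fasted library 1. Hepatocyte markers moved beside this list: their sum was 26430 to 35710 CPM in fasted HEP libraries and 18550 to 22270 CPM in fed ones, 1.55-fold, and the MAC sums given above differed 1.69-fold (exact two-sided permutation p = 0.0286 each, the smallest that 4 against 4 allows, 0.1 after Benjamini-Hochberg adjustment over 14 tests). The MAC ratio includes fasted library 3, at 25730 CPM. The other fasted MAC libraries had 13040, 13510 and 12660 CPM, the lowest of them just above the highest fed sum of 12620 CPM. All 23 hepatocyte markers were measured and 0 were called higher or lower. Their median difference was 0.01, or 0.14 without MAC fasted library 3. Their part in the result was not tested. The count of oxidation genes higher was 9 without MAC fed library 3.

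For Pck1, Angptl4, Zbtb16, Mt1 and Mt2, genes that fasting is known to raise in liver, both effects passed the test and the difference did not. Pck1, the key enzyme of gluconeogenesis, rose by 3.36 ± 0.56 in HEP and 2.93 ± 0.55 in MAC, and the difference was 0.43 ± 0.72. For Angptl4, an inhibitor of lipoprotein lipase, the effects were 3.29 ± 0.40 in HEP and 2.87 ± 0.40 in MAC. Zbtb16, a glucocorticoid target, rose by 4.19 ± 0.56 in HEP and 3.79 ± 0.56 in MAC. The metallothioneins Mt1 and Mt2, which bind zinc and other metals, rose in both cell types, with differences of 3.23 ± 1.23 and 3.54 ± 1.90 that missed the threshold (edgeR adjusted p = 0.0797 and 0.234). Standard errors of this size leave room for differences of 2-fold and more. For each of these 5 genes the marker share of the fasted HEP level was above the measured fasted MAC mean. It gives 1068 CPM beside 1030 CPM for Pck1, 92.2 beside 45.5 CPM for Angptl4 and 2132 beside 1640 CPM for Zbtb16. For Mt1 it gives 65.9 beside 12.95 CPM, and for Mt2 67.8 beside 7.15 CPM. The part of hepatocyte RNA in these MAC values was not tested. Of the panel of 30 fasting genes, 3 were higher and 1 was lower in the difference, beside 6.2% and 4.4% of all genes. Glucocorticoid receptor targets were higher in 5 of 30 and lower in 1, with 22 risen in HEP and 13 in MAC, beside 18.7% of all genes in HEP and 6.98% in MAC. FoxO targets were higher in 5 of 24 and lower in 1, again beside 6.2% and 4.4% of all genes, with 16 risen in HEP and 10 in MAC, or 6 in MAC without fasted library 3. Besides Txnip, these were led by Fbxo32, a ubiquitin ligase of muscle wasting (difference 1.89 ± 0.42), Pnpla2, which starts triglyceride breakdown (1.78 ± 0.39), and Ccng2, an atypical cyclin (1.62 ± 0.40). Amino acid catabolism and the urea cycle had 0 of 30 called, beside 10.6% of all genes. Of these 30, 12 rose in HEP, beside 18.7% of all genes. In MAC 11 rose, beside 6.98% of all genes, or 2 without fasted library 3.

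**Figure D4:**
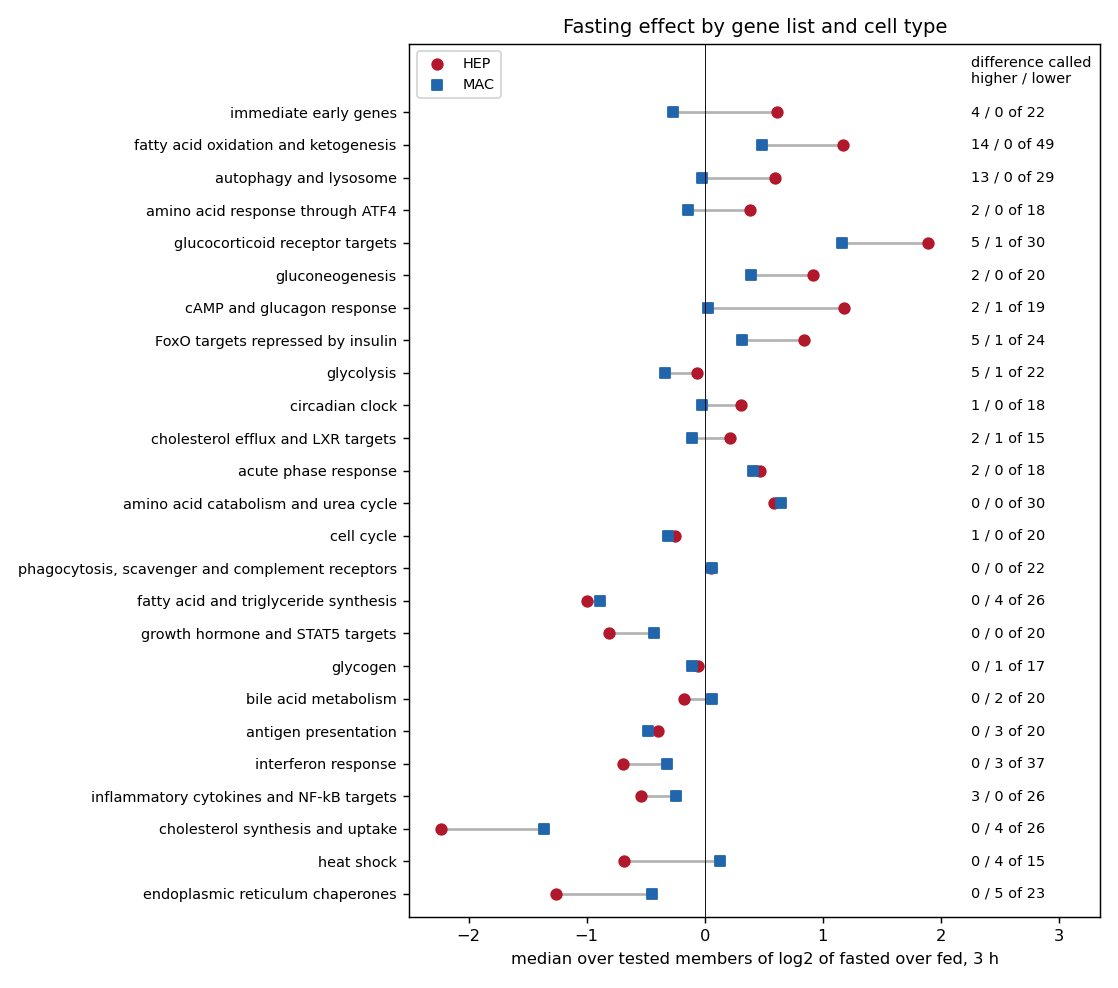
Median log2 of fasted over fed at 3 h over the measured members of 25 gene lists, in HEP (red circles) and in MAC (blue squares), ordered by the median difference; at the right the members called higher and lower in the difference, of those tested. Immediate early, oxidation and autophagy genes stand toward the top with 4, 14 and 13 members higher, and heat shock and endoplasmic reticulum chaperones at the bottom with 4 and 5 lower.

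Genes of autophagy and the lysosome, by which cells digest their own contents, were higher in 13 of 29 measured members and lower in 0, beside 6.2% and 4.4% of all genes, with a median difference of 0.68. In HEP 19 rose and 1 fell (median 0.60), beside 18.7% of all genes rising. In MAC 5 rose and 0 fell (median -0.02), beside 6.98%. Map1lc3b, the LC3 protein of the autophagosome membrane, had 41.3, 35.1, 46.7 and 44.9 CPM in fasted HEP libraries and 7.62, 6.74, 6.73 and 5.87 CPM in fed ones. In MAC it had 15.4, 13.0, 7.29 and 17.5 CPM when fasted and 8.19, 10.2, 8.51 and 11.7 CPM when fed. HEP groups did not overlap. Of the fasted MAC libraries, 3 lay above all fed ones and library 3 below them. The difference was 2.17 ± 0.35 (edgeR adjusted p = 4.34e-05). The marker share of its HEP level gives 18.5 CPM when fasted, beside the measured MAC mean of 13.3 CPM. Hexa, a lysosomal hydrolase, differed by 1.38 ± 0.27, and Bnip3, a receptor for the removal of mitochondria, by 1.34 ± 0.35. The count of members higher was 11 without MAC fasted library 3 and 7 in a fit to the 16 libraries alone.

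Genes of glucose breakdown were higher in 5 of 22 and lower in 1, beside 6.2% and 4.4% of all genes, or higher in 3 without MAC fasted library 3 or without HEP fasted library 4. In a fit to the 16 libraries alone 2 were higher. The median difference of this list was 0.31, with medians of -0.07 in HEP and -0.33 in MAC. Pfkfb3, which makes the activator of phosphofructokinase, had an effect of 1.28 ± 0.29 in HEP and -0.20 ± 0.28 in MAC, and Ldha, a subunit of lactate dehydrogenase, 1.34 ± 0.20 in HEP and 0.09 ± 0.20 in MAC. Of clock genes 1 of 18 was higher, a share close to the 6.2% of all genes. That gene was Nr1d2, the repressor REV-ERBbeta, with 216.2 to 251.5 CPM in fasted HEP libraries and 58.7 to 79.9 CPM in fed ones, against 157.5 to 190.6 CPM in fasted MAC libraries and 120.9 to 198.6 CPM in fed MAC libraries. Its difference was 1.56 ± 0.25 (edgeR adjusted p = 3.04e-05). Sesn2, a stress protein of the ATF4 response that restrains mTORC1, differed by 1.63 ± 0.34. Of inflammatory and NF-kB genes 3 of 26 were higher and 0 lower, beside 6.2% of all genes higher, and 1 was higher without MAC fed library 2 or without MAC fed library 4. The median difference of this list went the other way, at -0.25, with medians of -0.54 in HEP and -0.24 in MAC. In HEP 3 members rose and 3 fell. Among the 3 called higher in the difference was Nfkbia, the inhibitor of NF-kB, at 1.45 ± 0.20 in HEP and 0.38 ± 0.19 in MAC. Pla2g12a, a secreted phospholipase, rose in both cell types without overlap, by 3.17 ± 0.22 in HEP and 0.86 ± 0.21 in MAC. Slc8b1, the sodium and calcium exchanger of mitochondria, did the same with 3.02 ± 0.22 in HEP and 0.72 ± 0.20 in MAC, where it lost the MAC call without MAC fasted library 3.

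Among genes that fell in HEP with no call in MAC, Sorl1 had one of the largest differences. It encodes a receptor that sorts proteins between the Golgi and endosomes and lies on chromosome 9 at 41968489 to 42124289, minus strand. It had 2.71, 2.28, 2.32 and 1.62 CPM in fasted HEP libraries and 25.6, 11.96, 14.8 and 17.2 CPM in fed ones. The MAC values were 15.5, 16.0, 19.1 and 28.8 CPM when fasted and 19.1, 20.1, 18.9 and 21.3 CPM when fed. The HEP groups were far apart and the MAC groups overlapped. The effect was -2.94 ± 0.29 in HEP and 0.00 ± 0.25 in MAC, and the difference -2.94 ± 0.38 (edgeR adjusted p = 9.74e-07). The marker share of the HEP level gives 0.982 CPM when fasted and 7.62 CPM when fed, below the MAC mean of 19.9 CPM in both states. Rbfox3, a splicing regulator best known from neurons, had 0.187, 0.0633, 0.129 and 0.486 CPM in fasted HEP libraries and 1.83 to 4.299 CPM in fed ones, against 1.87 to 2.94 CPM in fasted MAC libraries and 3.03 to 4.91 CPM in fed MAC libraries. Neither pair overlapped, so its MAC values were also lower when fasted, though without a MAC call. Its difference was -3.06 ± 0.49. Il7, a cytokine for lymphocytes, differed by -2.49 ± 0.65, and Ccdc66, a protein of cilia and centrosomes, by -2.62 ± 0.39. For Ccdc66 the MAC values were 12.2 to 15.6 CPM when fasted and 16.6 to 26.0 CPM when fed, again lower without overlap or a call. In MAC 15.5% of all genes tested separated without overlap. Htra4, a serine protease, differed by -3.0 ± 0.91 and missed the threshold without HEP fasted library 1, HEP fasted library 4 or MAC fasted library 4. Cyp7a1, which sets the pace of bile acid synthesis, differed by -2.93 ± 0.88 and missed it in 4 of the 16 fits without 1 library, at -2.53 without MAC fasted library 3 (edgeR adjusted p = 0.0693).

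Most measured genes of cholesterol synthesis and uptake fell in both cell types. Of 26 genes, 22 fell and 1 rose in HEP (median -2.23), and 23 fell and 1 rose in MAC (median -1.36). Among all genes tested 18.2% fell in HEP and 6.53% in MAC. In the difference 4 were lower and 0 higher, beside 4.4% and 6.2% of all genes. Without MAC fasted library 3, 17 fell in MAC and 6 were lower in the difference, and without HEP fed library 2 or MAC fed library 3, 7 were lower. The count lower was 3 without HEP fed library 1 and 2 in a fit to the 16 libraries alone. Mvk, mevalonate kinase, fell by 3.92 ± 0.32 in HEP and by 1.67 ± 0.28 in MAC, and its difference was -2.25 ± 0.42. Mvd, the next decarboxylase of that pathway, differed by -2.01 ± 0.52, and Nsdhl, a sterol dehydrogenase, by -1.92 ± 0.44. For Mvd the marker share gives 0.367 CPM when fasted and 9.87 CPM when fed, beside measured MAC means of 1.36 and 9.24 CPM. The part of hepatocyte RNA in the MAC values of this list was not tested.

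In fatty acid and triglyceride synthesis, 14 of 26 measured genes fell and 2 rose in HEP, where 18.2% of all genes fell. In MAC, where 6.53% of all genes fell, 14 of the list fell and 1 rose, or 9 fell without fasted library 3. In the difference 4 were lower, beside 4.4% of all genes, a count of 1 without HEP fed library 1 or without MAC fed library 2, and of 2 without HEP fed library 4, HEP fasted library 1 or HEP fasted library 3. Acly, which makes acetyl-CoA for lipid synthesis, had 75.2, 61.2, 88.1 and 84.1 CPM in fasted HEP libraries and 1654, 568.7, 928.7 and 1308 CPM in fed ones. In MAC nuclei it was at 137.4, 159.9, 80.1 and 123.0 CPM when fasted and 376.9, 211.6, 533.8 and 360.7 CPM when fed. Neither pair overlapped. The effect was -3.85 ± 0.28 in HEP and -1.57 ± 0.26 in MAC, and the difference -2.29 ± 0.36 (edgeR adjusted p = 2.61e-05). The marker share of the HEP level gives 33.95 CPM when fasted, below the measured MAC mean of 125.1 CPM, and 488.1 CPM when fed, above the measured 370.8 CPM. Fasn, fatty acid synthase, fell by 3.86 ± 0.53 in HEP and by 3.00 ± 0.51 in MAC, with a difference of -0.87 ± 0.67 that missed the threshold. Its marker share gives 54.7 CPM when fasted and 793 CPM when fed, beside measured MAC means of 55.1 and 440.5 CPM. Srebf1, which encodes SREBP1, had effects of -2.38 ± 0.35 in HEP and -1.96 ± 0.35 in MAC. Its share gives 43.8 CPM when fasted and 227.4 CPM when fed, beside 56.7 and 221 CPM. The part of hepatocyte RNA in these MAC values was not tested. Atp2b2, a calcium pump of the plasma membrane, had 12.6, 17.0, 6.50 and 14.4 CPM in fasted HEP libraries and 332.1, 302.8, 236.4 and 308.8 CPM in fed ones, against 8.46 to 47.0 CPM in fasted MAC libraries and 63.96 to 198.8 CPM in fed MAC libraries. Its difference was -2.73 ± 0.64.

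Part of the protein folding genes were called lower. Of endoplasmic reticulum chaperones 5 of 23 were lower and 0 higher (median difference -0.79), beside 4.4% and 6.2% of all genes. In HEP 16 fell and 2 rose, and in MAC 4 fell and 2 rose, or 1 and 1 without MAC fasted library 3. The shares of all genes that fell were 18.2% in HEP and 6.53% in MAC. Dnajb11, a co-chaperone of BiP, had an effect of -2.07 ± 0.26 in HEP and -0.71 ± 0.24 in MAC. Its MAC call was lost without MAC fasted library 3. The count of members lower was 2 without HEP fasted library 3 or without MAC fed library 3, 3 without MAC fed library 4, and 8 by DESeq2. Of heat shock genes 4 of 15 were lower and 0 higher, beside 4.4% and 6.2% of all genes. Of the 15, 7 fell in HEP, beside 18.2% of all genes, and 0 were called in MAC, beside 13.5% of all genes. The count lower was 2 in 9 of the 16 fits without 1 library. Hspa4l, a heat shock protein of the HSP110 family, had 29.0, 30.0, 24.7 and 26.6 CPM in fasted HEP libraries and 67.7, 118.8, 105.6 and 99.7 CPM in fed ones. Its MAC values were 78.7, 95.6, 95.7 and 88.0 CPM when fasted and 83.1, 80.9, 49.8 and 83.0 CPM when fed. The HEP groups did not overlap, the MAC groups did, and the difference was -2.10 ± 0.26 (edgeR adjusted p = 6.60e-07). Hspa4l and Chordc1, a partner of HSP90 (-0.94 ± 0.23), kept their calls under all alternatives tried. Hsp90aa1 and Hsp90ab1, the cytosolic HSP90 chaperones, lost theirs in 10 and 13 of the 16 fits without 1 library.

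Of interferon response genes 3 of 37 were lower and 0 higher, beside 4.4% and 6.2% of all genes, and the count lower was 1 in 7 of the 16 fits without 1 library and 6 without HEP fasted library 2. Of this list 19 fell in HEP, beside 18.2% of all genes, and 5 in MAC, beside 6.53%, or 0 in MAC without fasted library 3. Ifih1, a sensor of viral RNA, had an effect of -1.07 ± 0.18 in HEP and -0.07 ± 0.18 in MAC. Of antigen presentation genes 3 of 20 were lower, beside 4.4% of all genes, or 2 without MAC fasted library 3, among them Psmb9, a subunit of the immunoproteasome, with -2.11 ± 0.31 in HEP and -0.63 ± 0.26 in MAC. Phagocytosis, scavenger and complement receptors had 0 of 22 called, beside 10.6% of all genes. Among markers of Kupffer cells and macrophages 2 of 28 were higher, beside 6.2% of all genes, and the count was 1 in 5 of the 16 fits without 1 library (HEP fed library 3 or 4, HEP fasted library 1 or 3, or MAC fed library 2). Both genes were chosen for mention after their values were seen. They were Hmox1, which breaks down heme, with 13.7 ± 4.03 CPM in fasted HEP libraries and 4.87 ± 1.66 CPM in fed ones (mean ± SD, n = 4), and Cd68, a lysosomal protein, with 3.28 ± 0.89 and 1.61 ± 0.30 CPM in the same order. In MAC the effects of Hmox1 and Cd68 were -0.40 ± 0.24 and -0.19 ± 0.24. The summed level of the 28 markers was 433.7 to 519.6 CPM in fasted HEP libraries and 397.4 to 456.0 CPM in fed ones, 1.13-fold. Their part in the result was not tested.

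Genes that fasting moved in opposite directions or in MAC alone were few once MAC fasted library 3 was set aside. The clearest was Tfrc, the transferrin receptor, by which cells take up iron, on chromosome 16 at 32608896 to 32632794, plus strand. It had 88.0, 58.7, 84.4 and 65.7 CPM in fasted HEP libraries and 53.7, 46.9, 46.2 and 42.9 CPM in fed ones. In MAC nuclei the levels were 38.6, 38.9, 41.6 and 33.1 CPM when fasted and 56.5, 62.1, 60.3 and 55.5 CPM when fed. All fasted HEP libraries lay above all fed ones, and all fasted MAC libraries lay below all fed ones. Such separation was seen in 38.4% of all genes tested in HEP and in 15.5% in MAC. Tfrc rose by 0.65 ± 0.15 in HEP and fell by 0.62 ± 0.15 in MAC, with a difference of 1.27 ± 0.21 (edgeR adjusted p = 5.93e-05), or 1.31 ± 0.22 without MAC fasted library 3. The marker share of the HEP level gives 32.7 CPM when fasted and 20.8 CPM when fed, a rise, beside the measured MAC means of 38.0 and 58.6 CPM.

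In the other direction, 4 genes fell in HEP and rose in MAC with and without that library: Pag1, Chsy1, Tcn2 and Vopp1. Of these, Vopp1 fell under the rule for named genes, and the others were chosen after their values were seen. Pag1, a membrane adaptor that holds Src kinases in check, had 88.0, 99.5, 78.3 and 95.9 CPM in fasted HEP libraries and 134.7, 148.0, 153.3 and 132.1 CPM in fed ones. Its MAC levels were 422.7, 413.5, 553.4 and 607.2 CPM when fasted and 276.6, 303.3, 220.1 and 349.8 CPM when fed. Neither pair overlapped, and the log2 difference was -1.45 (edgeR adjusted p = 7.40e-06), or -1.40 without MAC fasted library 3. Chsy1, a chondroitin synthase, had 72.4 to 108.0 CPM in fasted MAC libraries and 43.5 to 63.5 CPM in fed ones. For Tcn2, transcobalamin, which carries vitamin B12, the MAC values were 79.2 to 112.4 CPM when fasted and 48.7 to 73.2 CPM when fed. Vopp1 had 48.9 to 84.4 CPM in fasted MAC libraries and 32.3 to 42.6 CPM in fed ones.

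In MAC with no call in HEP, 5 genes rose under both sets of libraries: Ncoa1, Mrps6, Mapre2, Rnf103 and Serpine2, all but Serpine2 chosen after their values were seen. Mrps6, of the small mitochondrial ribosome subunit, had 53.6, 46.7, 56.9 and 97.7 CPM in fasted MAC libraries and 29.3, 35.1, 23.8 and 34.5 CPM in fed ones, and its HEP groups, 18.03 to 23.6 CPM when fasted and 21.5 to 31.1 CPM when fed, overlapped. Its difference was -1.44 (edgeR adjusted p = 3.77e-05). Ncoa1, a coactivator of nuclear receptors, had 427.7, 424.7, 1008 and 720.6 CPM in fasted MAC libraries and 307.0, 310.9, 282.2 and 308.7 CPM in fed ones, with library 3 the highest. Its difference was -0.92, and -0.62 without that library. Serpine2, an inhibitor of serine proteases, had 7.86, 14.1, 9.90 and 7.17 CPM in fasted MAC libraries and 2.43, 3.04, 2.99 and 4.02 CPM in fed ones, and a difference of -1.80 ± 0.50 (edgeR adjusted p = 0.0142).

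Several of the largest differences in these groups rested on 1 library or lay near the threshold. Maf, a transcription factor of macrophages, had 70.4, 61.6, 453.7 and 116.6 CPM in fasted MAC libraries and 52.9, 76.9, 71.6 and 73.7 CPM in fed ones. Library 3 alone stood far above the fed range. The difference of -1.66 ± 0.44 became -0.58 ± 0.29 without it (edgeR adjusted p = 0.229). Adgrg6, an adhesion receptor, had 28.6, 37.6, 120.8 and 60.98 CPM in fasted MAC libraries and 31.2, 25.01, 13.1 and 16.8 CPM in fed ones, and its difference of -1.81 ± 0.62 lost the call in 12 of the 16 fits without 1 library. Of genes that fell in MAC with no call in HEP, Mief2, a receptor for mitochondrial fission, had 3.29, 3.26, 0 and 1.503 CPM in fasted MAC libraries and 2.91 to 7.45 CPM in fed ones. Its difference of 1.72 ± 0.53 was 1.33 without library 3, where the MAC call was lost. Col6a6, a collagen chain, had 2.66, 2.10, 0.299 and 2.41 CPM in fasted MAC libraries and 3.38 to 7.92 CPM in fed ones, and lost its call in 8 of the 16 fits without 1 library. The symbol Gbp11, of an interferon-induced family whose members share sequence, had 12.8, 10.8, 4.78 and 7.14 CPM in fasted MAC libraries and 30.7, 54.5, 71.7 and 27.8 CPM in fed ones, and 76.1 CPM in fasted HEP library 2 against 24.0 to 25.7 CPM in the other 3. Its difference was 1.87 ± 0.59, or 1.28 without that HEP library (edgeR adjusted p = 0.136).

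Other genes with opposite calls kept a called difference, but not the MAC call, without MAC fasted library 3, among them Birc3, Sat1 and Zc3h12a. Birc3, an inhibitor of apoptosis in NF-kB signalling, had 44.6, 64.9, 44.3 and 50.9 CPM in fasted HEP libraries and 130.3, 85.1, 110.1 and 124.3 CPM in fed ones, against 204.8, 218.0, 299.6 and 287.4 CPM in fasted MAC libraries and 179.4, 187.0, 150.8 and 182.9 CPM in fed MAC libraries. Neither pair overlapped. The difference was -1.66 ± 0.22 with all libraries and -1.57 ± 0.22 without that one, while the MAC effect was 0.53 ± 0.15 with it and 0.44 without it (edgeR adjusted p = 0.127). Sat1, which breaks down polyamines, differed by 1.43 ± 0.30 and Zc3h12a, an RNase that degrades inflammatory mRNAs, by 1.39 ± 0.30. In MAC their lowest fasted value, 44.8 CPM for Sat1 and 3.24 CPM for Zc3h12a, was that of library 3.

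Genes of low level in 1 cell type also entered the calls. Of the 1485 genes, 54 averaged under 1 CPM in HEP and 39 under 1 CPM in MAC. Slc12a3, the thiazide-sensitive sodium chloride transporter known from kidney, differed by 5.49 ± 0.98, with a HEP effect of 6.53 ± 0.69 and a MAC effect of 1.04 ± 0.55. Chac1, which degrades glutathione in the ATF4 response, differed by 4.17 ± 1.22 and lost its call without HEP fed library 2 or MAC fed library 3. At the other end Cdx4, a homeobox gene, had 0 CPM in all 4 fasted HEP libraries and 0.206 to 0.650 CPM in fed ones, against 0.768 CPM in fasted MAC library 3, 0 CPM in the other 3 fasted MAC libraries and 0 to 0.143 CPM in fed MAC libraries, and it lost its call without that library. Fitted values of genes this low depend on few reads.

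Genes were also split by their fed level at 8, 16 and 24 h, in libraries that the 3 h difference does not use. Of 1905 genes at least 4-fold higher in MAC, 118 were called (6.19%), and of 76 genes at least 4-fold higher in HEP, 3 (3.95%). Of the other 12030 genes, 1364 were called (11.3%). With a boundary at 2-fold the shares were 293 of 3066 on the MAC side, 110 of 2368 on the HEP side and 1082 of 8577 between them. The split rests on levels that hepatocyte RNA in MAC libraries enters: all 23 hepatocyte markers fell in the middle class.

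The difference was followed in the libraries of 8, 16 and 24 h, which share none with 3 h. Of the 869 genes called higher at 3 h, 87.6% had the same sign at 8 h, beside 49.8% of all genes, and 186 (21.4%) were called higher there, beside 3.86% of all genes. Of the 616 called lower, 85.9% kept their sign, beside 50.2%, and 140 (22.7%) were called lower, beside 3.76%. At 16 h the shares of the same sign were 55.1% and 47.1%, beside 52.6% and 47.4% of all genes. Of the higher genes 5 were called higher at 16 h, 0.575% beside 0.407% of all genes, and of the lower genes 6 were called lower, 0.974% beside 0.128%. At 24 h the shares of the same sign were 52.5% and 70%, beside 47.5% and 52.5% of all genes. There 40 of the higher genes were called higher, 4.6% beside 2.1%, and 32 of the lower genes lower, 5.19% beside 1.95%. Some calls went the opposite way to that of 3 h. Among the higher genes these were 1 at 8 h, 0 at 16 h and 12 at 24 h. Among the lower genes they were 5, 5 and 6 at the same times, so at 16 h nearly as many as the 6 called lower. Over all genes 1068 (7.62%) were called at 8 h, 75 (0.535%) at 16 h and 567 (4.05%) at 24 h. Txnip differed by 4.98 at 8 h, Sorl1 by -2.22 and Acly by -2.62, and Hspa4l by -0.26. Tfrc differed by 0.70 ± 0.21 at 8 h, 0.77 ± 0.21 at 16 h and 0.88 ± 0.21 at 24 h. For Cdkn1a the values were 0.27 ± 0.71, 2.80 ± 0.80 and 3.52 ± 0.89 at the same times, with edgeR adjusted p of 0.869, 0.0937 and 0.017.

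**Figure D5:**
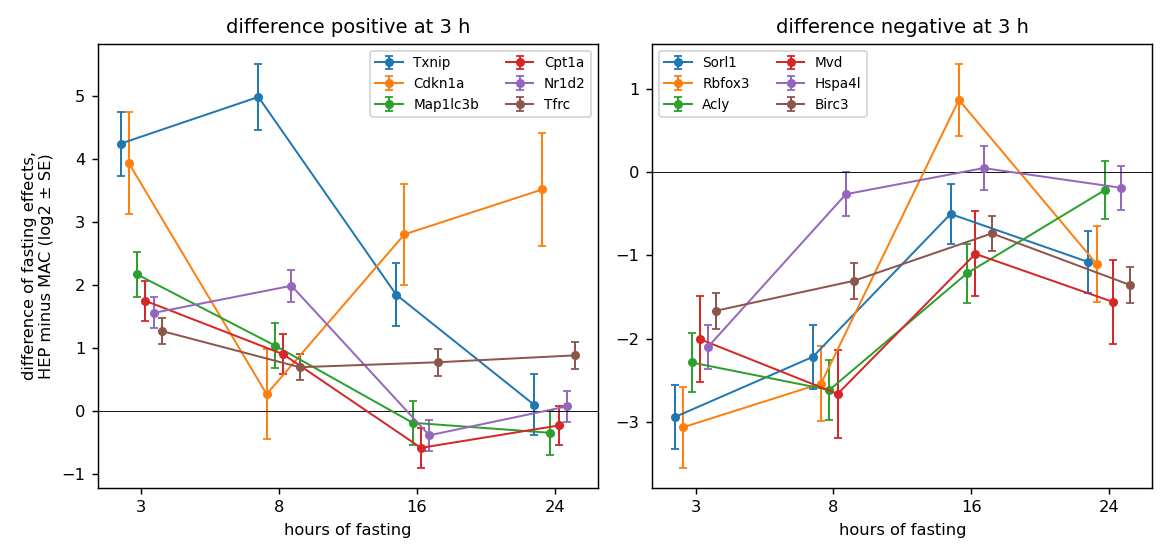
Difference of the fasting effects, HEP minus MAC, on the log2 scale (vertical axis, bars are SE) after 3, 8, 16 and 24 h of fasting (horizontal axis) for 6 genes higher at 3 h (left) and 6 lower at 3 h (right). Txnip, Sorl1 and Acly kept a difference at 8 h, while Hspa4l stood at -0.26 there.

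Unpurified nuclei give the fasting effect of whole liver in each line, with 1 pool of 4 mice per line and state and therefore no test. The 1485 genes were selected on the purified difference, so their purified values are high by that choice. Among them the lines differed by a median of 0.318 in absolute log2 and the purified cell types by 0.915. Over all genes tested these medians were 0.245 for the lines and 0.364 for the purified cell types. The line difference in the pools had the same sign as the purified difference for 81.8% of the 1485 genes, against 62.4% of all genes. It passed 2-fold for 87 of them (5.86%), against 3.93% of all genes. For Txnip the pools gave 2.18 in the HEP line and 1.16 in the MAC line, for Sorl1 -1.08 and -0.98, for Acly -3.65 and -2.25, and for Tfrc 0.62 and -0.19. For Cyp7a1 they gave -3.35 and -1.04, and for Atp2b2 -4.62 and -1.83. The part of the line in the result was not tested.

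Of the 128 genes named by the rule, 16 overlap another protein-coding gene in GENCODE vM21. Among them are Mvd, Map1lc3b and Fbxo31, which lie within the span of 1 read-through gene, and whose reads can then be shared with it. Members of the Gbp, Cyp4a, Acot and metallothionein families have close paralogs, so their counts are uncertain.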

How the data were processed

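RNA of purified nuclei was sequenced from total RNA without poly(A) selection, as strand-marking libraries of paired reads, per the labels' protocols. The deposited file is a table of raw counts per gene for all 80 libraries. STAR 2.4.2a, DESeq2 1.24.0 and build mm10 appear in the submitters' processing notes. The sources used here give neither the counting tool nor its use of strand. Replicates were numbered within groups by accession and do not pair groups. The title of each purified library carries a number of its own beside the library number, but nothing says that these numbers stand for separate mice. The p-values therefore measure the spread between these libraries, which may be technical. No 2 libraries of a group agreed within sampling noise.

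Counts were fitted in R 4.3.3 with edgeR 4.0.16: filterByExpr (count minimum 10, total minimum 15), TMM scaling and a robust quasi-likelihood F-test on 16 groups of all 64 purified libraries, which share 1 estimate of the spread. The Benjamini-Hochberg adjusted p over 14011 genes was called under 0.05. SE is the absolute log2 fold change over the square root of F. CPM are counts over the TMM-adjusted library total. Pool values are log2 CPM ratios with 0.5 CPM added. Total counts ran between 14316644 and 32564897. On simulated counts of 13959 genes the difference was called for 47% of genes changed 2-fold and 89% of genes changed 4-fold, and for 9 unchanged genes.

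The gene lists, the rule for named genes and the members were chosen with earlier results of these data known. Named were the genes with the largest difference per pattern (6 for patterns of 1 cell type, 4 for the others), the panel of 30 fasting genes and at most 4 called genes of each list, at a mean of at least 1 CPM in both cell types, with the 4 highest and 4 lowest of genes under 1 CPM. Alternatives were RLE and upper-quartile scaling, other filters, DESeq2 1.42.0, a fit to 16 libraries, a block by library runs, and leaving out each library. The 2 tables of selected genes were not used here. Some genes are not reported here.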

Additional observations from a re-analysis of the deposited data

Results flagged for a closer look

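The test of the difference itself flagged 1485 genes whose fasting effect was not the same in HEP and in MAC, among them 22 genes taken from the groups by call. On the log2 scale, HEP minus MAC, these were Txnip at 4.24, Gadd45g at 3.95 and Cdkn1a at 3.93, which rose in HEP, and Rbfox3 at -3.06, Htra4 at -3.0 and Sorl1 at -2.94, which fell in HEP. Of genes called in MAC they were Adgrg6 at -1.81, Serpine2 at -1.80 and Maf at -1.66, which rose, and Gbp11 at 1.87, Col6a6 at 1.80 and Mief2 at 1.72, which fell. Opposite calls were made for Sat1 at 1.43, Zc3h12a at 1.39, Tfrc at 1.27, Atp8a2 at -2.34, Ccl9 at -1.96 and Birc3 at -1.66. Of these 6 only Tfrc kept its MAC call without MAC fasted library 3, where Sat1 stood at 1.17 and Zc3h12a at 1.11. Atp8a2 had 66.8 CPM in that library, against 6.95 to 20.4 CPM in the other 3 fasted MAC libraries, and its difference was -1.39 without it, with a MAC effect of 0.36 (edgeR adjusted p = 0.644). Ccl9 differed by -1.67 without it, with a MAC effect of 0.84 (edgeR adjusted p = 0.123), and Birc3 by -1.57. Maff at 2.49 and Pla2g12a at 2.31 rose in both, and Atp2b2 at -2.73 and Acly at -2.29 fell in both.

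A single library far from the other 3 of its group was found in 6 of 96 groups of values examined, and chance gives about 1 in 20. The hepatocyte marker sum was 25730 CPM in MAC fasted library 3, and Maf was at 453.7 CPM there. Txnip was at 191.2 CPM in HEP fasted library 1. Gbp11 was at 76.06 CPM in HEP fasted library 2. Cdkn1a was at 2.722 CPM in MAC fed library 4. Pla2g12a was at 2.489 CPM in HEP fed library 3.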

How the results depend on the processing

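Of the 102 named genes called in the difference, 50 were called under all 23 alternatives, 45 lost the call when some single library was left out, 32 lost it in the fit to the 16 libraries of 3 h, and none turned its sign. In that fit, whose spread comes from fewer libraries, 377 genes were higher and 360 lower, and 730 were called in MAC. Leaving out 1 library in turn gave 615 to 1027 genes higher, 374 to 777 lower, 4341 to 5614 called in HEP and 478 to 2999 called in MAC. Of the 26 named genes that were not called, 6 turned their sign when some library was left out. Over these fits Ppargc1a ranged between -0.13 and 0.71, G6pc between -0.273 and 0.0919, Cxcl1 between -0.45 and 0.14, Tnf between -1.16 and 0.0589, Ucp2 between -0.0352 and 0.583 and Srebf1 between -0.74 and 0.34. A class boundary at 2-fold in place of 4-fold gave 2368 hepatocyte-biased and 3066 macrophage-biased genes. With 2 CPM added, 3.5% of the called genes passed 2-fold between the pools. Runs of library numbers as a replicate block gave 873 genes higher and 609 lower. Deviations of fasted and fed libraries of the same run from their group means correlated at -0.181 to 0.106 in HEP and -0.337 to 0.344 in MAC. For libraries of different runs the correlations were -0.301 to 0.212 in HEP and -0.371 to 0.346 in MAC. The part of a batch in the result was not tested. The labels name no runs and carry no replicate numbers that pair groups. On simulated counts at this depth, which held no outlying library, 47% of 2-fold differences were called among genes averaging at least 1 CPM.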
